A study of Homo sapiens with 32 samples.

Results

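ADM, NDRG1 and GPI are genes that many human cells induce when oxygen is scarce, and their transcripts were followed in estrogen receptor-positive breast cancer xenografts during tamoxifen treatment. The members are all probes of the array that Additional File 1 of the study names with 1 of these symbols, which gives 3 probes of 9912 in all: 232638_A for ADM, 327407_B for NDRG1 and 231685_A for GPI. All 3 lie in set 4 of the study, a set it groups under variable responses. The probes named there were chosen for a change on these arrays and their sets were clustered on these tumors, so neither the day tests nor the correlations below are independent evidence about the 3 genes.

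Each treated tumor was a graft of ZR-75-1 cells, a human line of breast cancer whose growth depends on estrogen, in the flank of a female nu/nu mouse that carried a pellet of estradiol (E2) and a pellet of 2.5 mg of tamoxifen released over 60 days. There were 16 such tumors from 12 mice: 4 tumors from 2 mice at day 1, 2 tumors from 2 mice at day 2, 4 tumors from 3 mice at day 4, 4 tumors from 3 mice at day 7 and 2 tumors from 2 mice at day 14. The reference on every array was 1 pool of RNA from E2-only xenografts taken on days 0, 1, 2 and 4, so the mice of both arms carried E2 and lacked a thymus. The pool has no spread of its own in any test and holds no tumor of days 7 or 14, so for those days tamoxifen and time in the host cannot be told apart. Bulk RNA of a graft cannot separate fewer cells of a type from less RNA per cell, and mouse RNA could hybridize to the human clones. The values are log2 ratios of a tumor over the pool, averaged over both dye orientations of 2-colour cDNA arrays, and a positive value means a higher transcript level in the tamoxifen-treated tumor. That direction is likely rather than certain (the basis is given with the processing), and if it were the opposite every log2 ratio would change sign while every correlation between genes would stay as it is.

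Cells sense oxygen through prolyl hydroxylases, enzymes that mark the alpha subunits of the hypoxia-inducible factors (HIF) for destruction while oxygen is present. When oxygen falls the subunits persist, bind short DNA elements with the core ACGTG or GCGTG and raise the transcription of genes for glycolysis, acid export, vessel growth and matrix modification. In solid tumors such transcripts are known to be unevenly distributed, since parts of a tumor lie far from a vessel. ADM encodes adrenomedullin, a secreted peptide that widens vessels. NDRG1 encodes a cytoplasmic protein that is induced by hypoxia and other stresses and is linked to growth restraint. GPI encodes the glycolytic enzyme that converts the phosphates of glucose and fructose into each other.

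In GRCh38.p14, ADM lies on chromosome 11 (10305073-10307397) and GPI on chromosome 19 (34359718-34402413). The 250 bases before the start that RefSeq gives for ADM and GPI are printed here because the genes moved together and both are known HIF targets. For GPI the table uses a start inside the annotated gene. Capitals mark ACGTG or GCGTG, searched on both strands.
ADM, chr11:10304823-10305072, plus strand: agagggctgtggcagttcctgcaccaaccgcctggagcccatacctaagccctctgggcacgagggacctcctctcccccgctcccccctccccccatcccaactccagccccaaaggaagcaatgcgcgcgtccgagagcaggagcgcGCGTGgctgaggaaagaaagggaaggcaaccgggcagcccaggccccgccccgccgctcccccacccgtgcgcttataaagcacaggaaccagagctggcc
GPI, chr19:34364742-34364991, plus strand: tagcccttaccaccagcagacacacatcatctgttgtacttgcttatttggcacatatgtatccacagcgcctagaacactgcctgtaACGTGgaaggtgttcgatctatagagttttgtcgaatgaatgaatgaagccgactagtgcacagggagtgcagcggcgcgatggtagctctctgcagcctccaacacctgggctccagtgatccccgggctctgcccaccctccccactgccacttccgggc
The ADM window held GCGTG once, beginning 101 bases before the start, and the GPI window held ACGTG once, beginning 162 bases before it. ACGTG was found in 18.5% of the 35114 RefSeq promoter windows of that length, GCGTG in 32.2% and either in 43.2%, so a match of this kind is common and is given as a description only.

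The clearest feature of the 3 genes was that they varied together between tumors that had been treated for the same number of days. A tumor with much ADM for its day mostly also had much NDRG1 and GPI. Exceptions included day 4 replicate 2, which lay at -0.32 from its day mean for ADM and at 0.29 for GPI. The SD between tumors of day 1 was 1.41 for ADM, 0.92 for NDRG1 and 0.57 for GPI. The SD was in the same order at days 2 and 4, whereas at days 7 and 14 NDRG1 had the highest SD of the 3. Against the pool, only GPI at day 1 passed the test.

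ADM, the vasodilator peptide gene, had log2 ratios of 1.46, 0.75, 0.04 and -1.83 in day 1 replicates 1, 2, 3 and 4. It stood at -0.06 and -1.07 in the day 2 tumors and at -1.83, -0.88, 0.40 and 0.05 in day 4 replicates 1, 2, 3 and 5. The day 1 tumors thus spanned 3.29 log2 units, from well above the pool to well below it, and the 2 lowest tumors of the whole series belonged to days 1 and 4. At day 7 the 4 tumors lay close to the pool, at -0.17, -0.01, 0.09 and 0.01. At day 14 both were below it, at -0.77 and -0.97. The day 14 values were not the lowest, since day 1 replicate 4, day 2 replicate 2 and day 4 replicate 1 were lower still.

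NDRG1, the stress-induced cytoplasmic protein gene on chromosome 8 (133237175-133297252 in GRCh38.p14), had log2 ratios of 1.66, 1.23, 0.62 and -0.46 in day 1 replicates 1 to 4. It had 0.23 and -0.30 at day 2, and -0.68, 0.47, 1.23 and 0.58 in day 4 replicates 1, 2, 3 and 5. The same tumors were highest and lowest as for ADM on each of these days. At day 7 it had -0.20, 0.56, 0.45 and 0.36, and at day 14 -0.50 and -0.97. The lower day 14 tumor was the lowest NDRG1 value of the series, and the higher one was lower than all earlier tumors but day 4 replicate 1.

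GPI, the glycolytic isomerase gene, had log2 ratios of 1.17, 0.90, 0.84 and -0.14 in day 1 replicates 1 to 4. It had 0.42 and 0.22 at day 2, and -0.39, 0.50, 0.45 and 0.31 in day 4 replicates 1, 2, 3 and 5. Outside day 14 it was below the pool only in day 1 replicate 4 and day 4 replicate 1, which were also the 2 tumors with the lowest ADM. At day 7 it had 0.20, 0.30, 0.46 and 0.33, and at day 14 -0.44 and -0.55. The day 14 tumors were below all 14 earlier tumors for GPI.

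**Figure D1:**
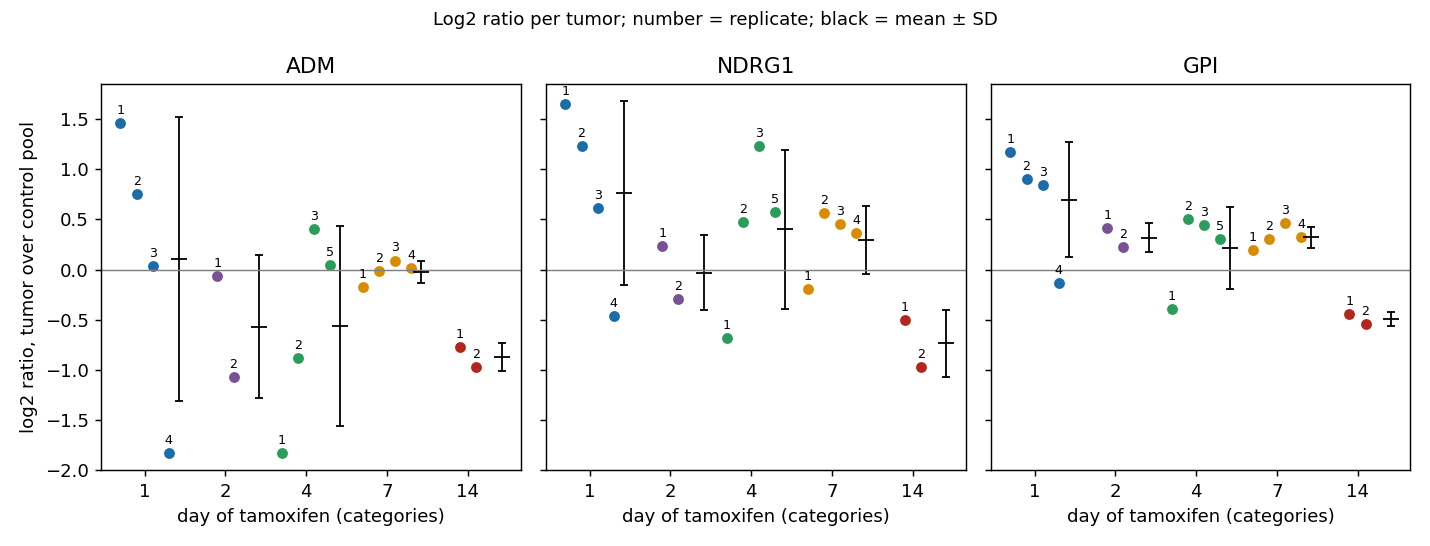
Log2 ratio of each tamoxifen-treated tumor over the control pool (y axis) by day of treatment (x axis, categories) for ADM, NDRG1 and GPI; numbers are replicates, black marks are the mean and SD of the day. ADM spans 3.29 log2 units at day 1, GPI 1.31, and replicate 4 of day 1 and replicate 1 of day 4 are the lowest of their day for all 3 genes.

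Treated tumors were compared with the pool on each day with limma, and a probe was called at an adjusted p under 0.05 over all 9912 probes. At day 1, where 6.59% of all probes were called in either direction and 3% higher, 1 of the 3 genes was called. GPI was 0.69 ± 0.57 at day 1 (SD, n = 4), a 1.62-fold higher level, with an adjusted p of 0.0193. NDRG1 was 0.76 ± 0.92 and ADM 0.11 ± 1.41 on that day, with adjusted p of 0.112 and 0.913. Without replicate 1, 2 or 3 the log2 ratio of GPI was 0.55, 0.65 and 0.64 and the adjusted p was 0.142, 0.124 and 0.0927, so the call was lost while the sign stayed. With 1 mean per mouse the log2 ratio was again 0.69 and the adjusted p 0.0956, and on the dye-swap arrays alone GPI was 0.52 with an adjusted p of 0.138.

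None of the 3 genes was called at day 2, 4, 7 or 14, where 0.777%, 1.07%, 0.736% and 6.29% of all probes were called. ADM was -0.57 ± 0.71 at day 2 (SD, n = 2), -0.57 ± 1.00 at day 4 (n = 4), -0.02 ± 0.11 at day 7 (n = 4) and -0.87 ± 0.14 at day 14 (n = 2). NDRG1 was -0.03 ± 0.38, 0.40 ± 0.80, 0.29 ± 0.34 and -0.74 ± 0.33 on these days, and GPI was 0.32 ± 0.14, 0.22 ± 0.41, 0.32 ± 0.11 and -0.50 ± 0.07. Before adjustment, only GPI at day 14 had a limma p under 0.05, and the 95% intervals at day 14 ran from -1.99 to 0.25 for ADM, from -1.56 to 0.09 for NDRG1 and from -0.98 to -0.01 for GPI. When only the day 14 tumors entered the fit, so that the wide spread of days 1 and 4 no longer counted, all 3 were called, with adjusted p of 0.0142 for ADM, 0.0364 for NDRG1 and 0.0497 for GPI, from 2 tumors. That fit called 6.26% of all probes, 3.09% lower.

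Day 14, the last day of treatment, was also set against the mean of the earlier days. On this contrast 0.343% of all probes were called, 0.141% lower. The log2 difference was -0.88 for GPI (SE 0.25, adjusted p = 0.140), -1.09 for NDRG1 (SE 0.42, adjusted p = 0.301) and -0.61 for ADM (SE 0.57, adjusted p = 0.733), so none passed. Before adjustment, 2 of the 3 (GPI and NDRG1) had a limma p under 0.05. GPI passed without day 1 replicate 4 (adjusted p = 0.0231), with 1 mean per mouse (0.0463) and with array weights (0.0409). The F-test among the 5 days called 0.0807% of probes and gave adjusted p of 0.787 for ADM, 0.524 for NDRG1 and 0.393 for GPI.

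The spread itself set ADM and NDRG1 apart from the bulk of the array, and GPI less so. The SD between tumors of the same day was 0.93 log2 units for ADM, which ranked 6 among 9912 probes, 0.68 for NDRG1, which ranked 33, and 0.38 for GPI, which ranked 603, while the median over all probes was 0.22. The genes were proposed with their variation known, so these ranks are a description without a test. At day 7 the 4 tumors lay within 0.26 log2 units for ADM (SD 0.11), and at day 14 the SD of ADM was 0.14 (n = 2).

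Of the 16 tumors, 15 had a usable array in both dye orientations, which shows how much of the spread lies between arrays. For ADM the forward ratio minus the dye-swap ratio of a tumor averaged -0.05 with an SD of 0.16 (n = 15 tumors), so the SD between tumors was 11.9 times the SD this gives for a mean of both arrays. For NDRG1 the forward array was the higher one in 15 of 15 tumors, by 0.64 on average with an SD of 0.28, and the SD between tumors was 4.83 times the array error. For GPI the difference averaged 0.16 with an SD of 0.26, and that factor was 2.95. ADM ratios were thus close on both arrays of a tumor, whereas NDRG1 carried a dye offset that cancels only where both orientations were used. Over all probes the ratios of the 2 orientations of a tumor had a mean r of only 0.0553. That r was taken across probes, where dye offsets of single probes enter. It cannot be compared with the SD of 1 probe across tumors, so the repeatability of the 3 probes was not ranked against other probes.

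**Figure D2:**
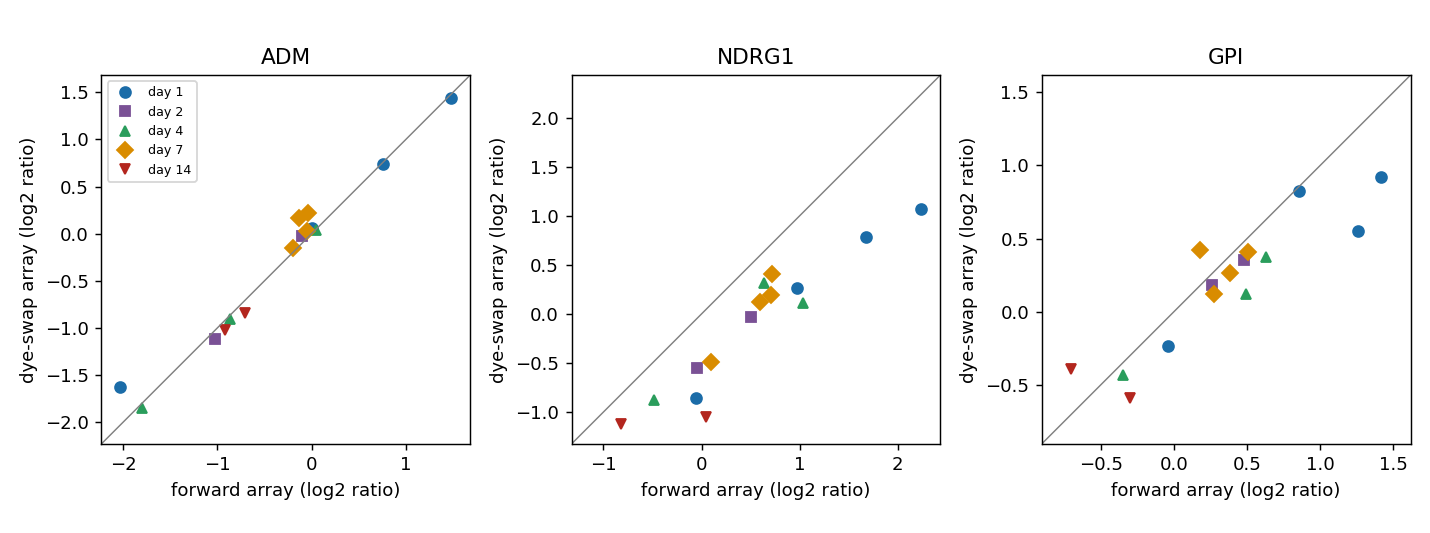
Log2 ratio of each tumor on its dye-swap array (y axis) against its forward array (x axis) for the 15 tumors with both; the grey line marks equality and symbols mark the day. ADM points lie near the line over the whole range, and all NDRG1 points lie below it, by 0.64 on average.

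Day 4 replicate 3, the highest NDRG1 tumor of day 4, is the tumor with a forward array alone. Its NDRG1 value of 1.23 became 0.92 when the mean dye offset of the probe was taken off, its GPI value of 0.45 became 0.36 and its ADM value of 0.40 became 0.43. It stayed the highest of its day for ADM and NDRG1. The dye-swap array of that tumor was left out because over all probes it mirrored the ratios of another tumor, day 4 replicate 2, on its forward array (r = -0.88).

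Tumors in the 2 flanks of 1 mouse were compared in the 4 mice with both on the arrays. In 1 mouse of day 1, replicate 3 exceeded replicate 4 by 1.86 log2 units for ADM, 1.08 for NDRG1 and 0.98 for GPI. In the other, replicate 1 exceeded replicate 2 by 0.71, 0.42 and 0.27. In a day 4 mouse replicate 1 was lower than replicate 2 for all 3 genes, with differences of -0.94, -1.16 and -0.90, and in a day 7 mouse the flanks differed by 0.08, 0.09 and 0.13. The 3 genes differed in the same direction in each of the 4 mice, and grafts of 1 animal with the same pellets and the same day could lie far apart. The differences in the day 7 mouse were about the size of the array error of a tumor mean (0.08 for ADM, 0.14 for NDRG1 and 0.13 for GPI). Their direction is therefore uncertain.

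Whether the genes varied together was tested on the deviation of each tumor from its day mean, which takes differences between days out. Over 16 tumors Pearson's r was 0.945 for ADM and NDRG1, 0.901 for ADM and GPI and 0.915 for NDRG1 and GPI, with exact two-sided permutation p of 7.2e-05, 0.00463 and 0.000814 when tumors were permuted within days. Spearman's rho was 0.903, 0.726 and 0.774 for the same pairs, with exact permutation p of 0.000253, 0.0116 and 0.00271. Adjusted over the 45 pairs of the 10 genes of the hypoxia and glycolysis lists with a named probe, the p of r was 0.00326, 0.0208 and 0.0120, and that of rho was 0.0114, 0.0580 and 0.0407. Of those 45 pairs, 18 had an adjusted p under 0.05 by r and 8 by rho, and the median r was 0.428.

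**Figure D3:**
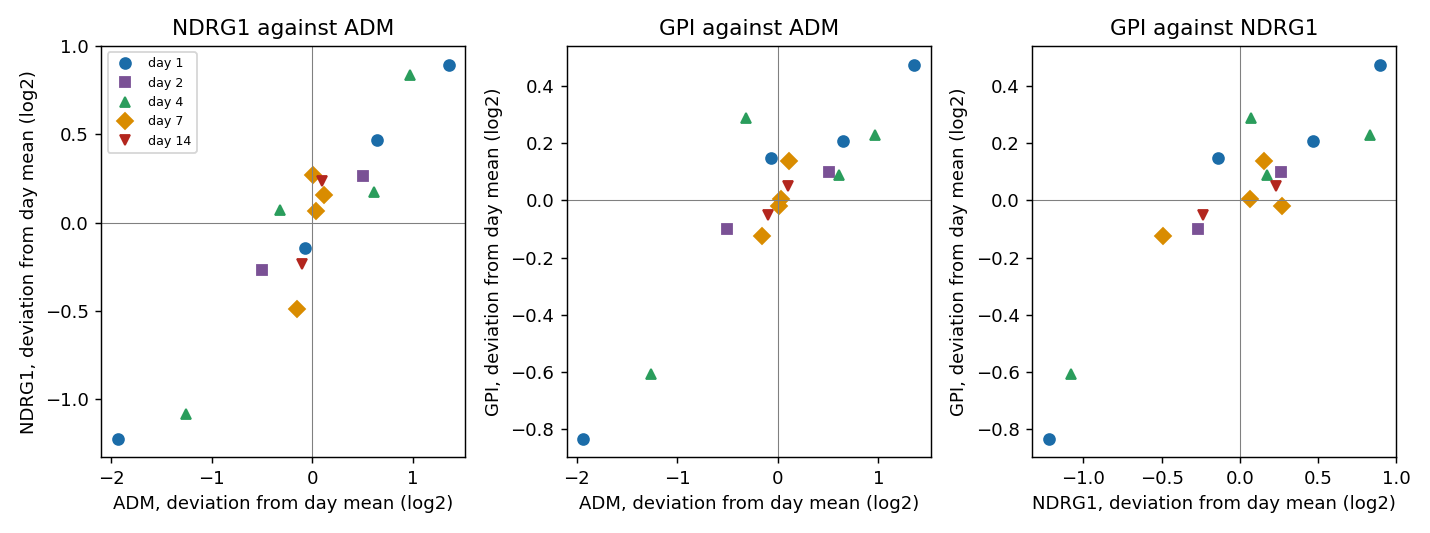
Deviation of each tumor from the mean of its day, in log2 units, for each pair of the 3 genes (n = 16 tumors, symbols mark the day). The r of the panels is 0.945, 0.901 and 0.915, day 4 replicate 2 lies above the trend of GPI, and day 1 replicate 4 and day 4 replicate 1 lie at the low end of each.

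The orders of the tumors within each day were also compared. At day 1 the order from high to low was replicate 1, 2, 3, 4 for all 3 genes. At day 4 it was replicate 3, 5, 2, 1 for ADM and NDRG1 and replicate 2, 3, 5, 1 for GPI. At day 7, when values were close together, ADM and GPI shared the order 3, 4, 2, 1 and NDRG1 had 2, 3, 4, 1. The day 7 SD of 0.11 for ADM and for GPI was near the array error of a tumor mean, 0.08 and 0.13. For GPI the day 7 order was 3, 4, 1, 2 on forward arrays and 2, 3, 4, 1 on dye-swap arrays, so little rests on that day. At days 2 and 14, replicate 1 exceeded replicate 2 for all 3 genes. On dye-swap arrays alone GPI had the reverse order at day 14, with -0.59 in replicate 1 and -0.39 in replicate 2. With 4 tumors each, r of ADM and NDRG1 was 0.997 at day 1, 0.944 at day 4 and 0.861 at day 7, that of ADM and GPI 0.979, 0.768 and 0.958, and that of NDRG1 and GPI 0.962, 0.898 and 0.713.

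Each relation was also computed without the tumors at the extremes. Without day 1 replicates 1 and 4, the tumors farthest from the median of ADM, r was 0.901 for ADM and NDRG1 (exact permutation p = 0.000868) and 0.756 for ADM and GPI (exact permutation p = 0.0560). Without day 1 replicate 4 and day 4 replicate 1, the tumors farthest for GPI and for NDRG1, r was 0.831 for ADM and NDRG1 (exact permutation p = 0.00955), 0.718 for NDRG1 and GPI (exact permutation p = 0.0333) and 0.525 for ADM and GPI (exact permutation p = 0.170). The exact permutation p of ADM and GPI was thus not under 0.05 without either pair of extreme tumors, so its side of the threshold depended on those tumors. With any single tumor left out, r of ADM and GPI was between 0.781 and 0.974, with an exact permutation p of at most 0.0190. The slopes also differed in size: per log2 unit of ADM within a day, NDRG1 changed by 0.68 and GPI by 0.36.

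Values read on different arrays were also correlated. With the first gene of a pair taken from forward arrays and the second from dye-swap arrays (n = 15 tumors), r was 0.898 for ADM and NDRG1, 0.813 for ADM and GPI and 0.774 for NDRG1 and GPI, with exact permutation p of 0.00362, 0.0379 and 0.0360. With the orientations exchanged r was 0.943, 0.908 and 0.904. With 1 mean per mouse, which counts each animal once, r was 0.917, 0.954 and 0.937, with exact permutation p of 0.00694, 0.00347 and 0.0104. The 0.00347 is the smallest p possible with so few mice per day.

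Against the whole array, each of the 3 genes was among the closest partners of the others. When every other probe was fitted in limma on the day means and the deviation of ADM, 0.504% of 9911 probes rose with ADM at an adjusted p under 0.05, and NDRG1 (adjusted p = 0.000244) and GPI (adjusted p = 0.00658) were among them. By r, NDRG1 ranked 7 and GPI ranked 19 of 9911 probes as partners of ADM. With NDRG1 as the covariate 0.272% rose with it, and ADM ranked 5 (adjusted p = 7.5e-05) and GPI ranked 11 (adjusted p = 0.00708). With GPI as the covariate 0.121% rose with it, and NDRG1 ranked 3 and ADM ranked 8 (adjusted p = 0.00237 for both). The middle 90% of all probes had an r with ADM between -0.54 and 0.55. Of the 22 other probes of set 4, 16 (72.7%) had a mean r above 0.5 with the 3 genes, against 5.45% of the 9909 other probes of the array, and their median was 0.64. Set 4 was clustered on these tumors, so this share is a description.

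Among the 9909 other probes, of which 330 were named, those most like the 3 genes by mean r were mostly unnamed. Of the first 40 by mean r, 5 were named. The first was the unnamed probe 272176_A with a mean r of 0.955. The first named one, at rank 7, was LDHA, which makes lactate from pyruvate at the end of glycolysis, with r of 0.922, 0.878 and 0.910 with ADM, NDRG1 and GPI. It had log2 ratios of 0.77, 0.33, 0.18 and -0.61 in day 1 replicates 1 to 4 and of -0.57, -0.13, 0.07 and 0.15 in day 4 replicates 1, 2, 3 and 5. The same 2 tumors were thus lowest as for the other genes. Without those 2 tumors r of LDHA and GPI was 0.497 (exact permutation p = 0.262). That of LDHA and NDRG1 was 0.590 (exact permutation p = 0.117). Without day 1 replicates 1 and 4, r of LDHA and ADM was 0.795 (exact permutation p = 0.0289). The changes of LDHA were smaller than those of ADM, at 0.35 log2 units per unit, and LDHA was called on no day.

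FOS, an immediate-early transcription factor gene that mitogens and cell stress switch on within minutes, followed with all 3 of its probes, at ranks 8, 13 and 16. FOS probe 121976_A had log2 ratios of 1.17, 0.45, 0.50 and -0.83 at day 1 and of -0.93, -0.33, 0.29 and -0.04 at day 4. Its r was 0.938 with ADM, 0.876 with NDRG1 and 0.897 with GPI, and the other probes had r between 0.845 and 0.940. Unlike the 3 genes, each FOS probe was called lower at day 14, with log2 ratios between -1.76 and -1.12. FOS is not a classical HIF target, and it is known to be induced by estrogen.

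The other named probes with the highest mean r were SLC39A6 (52933_A), DTNA and both probes of PLOD2. SLC39A6 is a zinc transporter gene induced by estrogen in breast cells. Its probe 52933_A had r of 0.919, 0.837 and 0.810 with ADM, NDRG1 and GPI. Another SLC39A6 probe, 43444_A, had only 0.460, 0.220 and 0.158, so the relation was not shared by all probes of the gene. PLOD2, a lysyl hydroxylase of collagen and a HIF target, had r of 0.893 and 0.857 with ADM but 0.712 and 0.656 with GPI, and for PLOD2 and GPI r was 0.121 without day 1 replicate 4 and day 4 replicate 1. DTNA, a dystrobrevin, was the one member of this group outside set 4 and had r between 0.751 and 0.825. In the limma test DTNA passed against none of ADM, NDRG1 and GPI (adjusted p of 0.175, 0.102 and 0.141). SLC39A6 probe 52933_A (adjusted p = 0.0170) and PLOD2 probes 310449_A (0.00658) and 139570_A (0.0146) passed against ADM only. The 4 named probes with the lowest mean r were C20orf3 (-0.79), IGFBP7 (-0.69), FN1 probe 324061_A (-0.66) and ALB (-0.64). IGFBP7 and FN1 encode secreted proteins of the matrix and ALB encodes albumin. None of these 4 passed the limma test against any of the 3 genes.

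**Figure D4:**
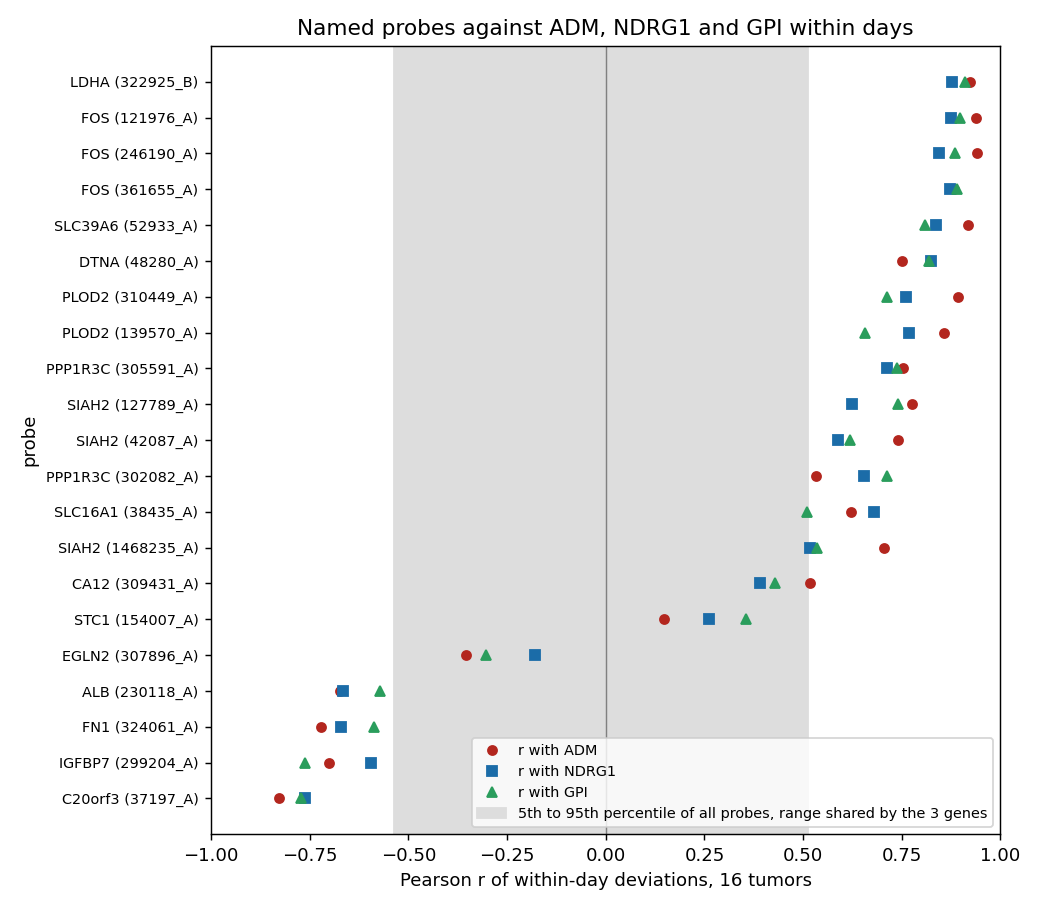
Pearson r of within-day deviations over 16 tumors (x axis) of named probes (y axis) with ADM, NDRG1 and GPI; the grey band is the range shared by the 5th to 95th percentiles of all probes for the 3 genes. LDHA, FOS, SLC39A6 probe 52933_A, DTNA and PLOD2 lie above the band, STC1 and EGLN2 inside it, and C20orf3, IGFBP7, FN1 probe 324061_A and ALB below it.

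The genes of the pathway followed this pattern to unlike degrees. Of the 49 symbols of the hypoxia and HIF target list, 6 had a named probe (8 probes with those of ADM and NDRG1), and of 21 glycolysis symbols 4 did. CA12, a membrane carbonic anhydrase that is also induced by estrogen, had r of 0.517, 0.390 and 0.428 with ADM, NDRG1 and GPI. Adjusted over the 45 pairs, its exact permutation p was 0.0361, 0.217 and 0.101, and by rho it was 0.105 with ADM. STC1, the secreted hormone stanniocalcin and a HIF target, had r of 0.147, 0.263 and 0.355, with adjusted permutation p of 0.722, 0.534 and 0.310. SLC16A1, a lactate transporter, had r of 0.621, 0.679 and 0.509, with adjusted permutation p of 0.0120, 0.0128 and 0.0399. By rho the adjusted permutation p of SLC16A1 was 0.0407, 0.0439 and 0.115. The probes of PPP1R3C, a glycogen-targeting subunit of protein phosphatase, had r between 0.532 and 0.753. For its probe 302082_A the adjusted permutation p was 0.216, 0.0783 and 0.0361, and by rho it was 0.0618 with GPI. Genes listed under hypoxia thus had r with ADM from 0.945 (NDRG1) down to 0.147 (STC1). In the limma fits over all probes, the adjusted p with ADM, NDRG1 and GPI was 0.539, 0.453 and 0.805 for SLC16A1. For CA12 it was 0.590, 0.821 and 0.822, and no probe of STC1 or PPP1R3C passed either. Their adjusted permutation p thus hold among the listed pairs and not against the whole array.

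Among the regulators, 2 of 12 symbols had a named probe. SIAH2, a ubiquitin ligase that acts on HIF prolyl hydroxylases and is also induced by estrogen, had r between 0.517 and 0.776 over its 3 probes. No SIAH2 probe passed the limma test over all probes against ADM, NDRG1 or GPI. EGLN2, one of those hydroxylases, had r of -0.35, -0.18 and -0.30. EGLN2 was called lower at day 1, by 0.75 log2 units (adjusted p = 0.000260), where 3.59% of all probes were called lower. At day 14, 1 of the 4 named regulator probes was called lower, against 2.96% of all probes. Any part of these regulators in the values of ADM, NDRG1 and GPI was not tested.

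By day, the other pathway genes changed mainly at day 14, where 2.96% of all probes were called lower and 3.33% higher. Of the 8 hypoxia list probes, 5 were called lower at day 14 and 1 higher, with a median log2 ratio of -0.85 against 0.00 over all probes, and none was called on another day. The lower ones were both PLOD2 probes (-0.92 and -0.87), both PPP1R3C probes (-0.77 and -0.83) and CA12 (-1.10), and the higher one was STC1 (1.17). STC1 was above the pool on every day, between 0.80 and 0.98 on average before day 14. Of the glycolysis genes described here, SLC16A1 was called lower at day 14 (-1.07), whereas GPI and LDHA (-0.53) did not pass. SLC16A1 was also called lower at day 1 (-0.45) and day 7 (-0.53), where 3.59% and 0.494% of all probes were called lower. These probes were all named because they changed on these arrays, so their share of calls cannot be read against that of the array as a finding.

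Measures of other cells and of the arrays were set beside the 3 genes within days. None of 21 relations passed the adjustment, and the smallest adjusted p was 0.171, for the mean of the 28 named estrogen-induced probes and ADM (r = 0.563, exact permutation p = 0.00816, n = 16). That list holds FOS, SLC39A6, SIAH2 and CA12. At day 14 its median log2 ratio was -1.23, and 24 of 28 probes were called lower, against 2.96% of all probes. Named probes were chosen for a change on these arrays, so the shares of calls in these lists are a description. The fibroblast and matrix list had 3 named probes, of which 2 were called lower at day 14, and its mean over a tumor lay between -0.22 and -0.20 at day 1, between -0.24 and 0.08 at day 4 and between -1.04 and -0.59 at day 14, with r of -0.25 with ADM. The 5 hemoglobin probes had r of 0.10 with ADM, the 33 proliferation probes had -0.40, and the median signal over background of the tumor channel had r of -0.11. Without the 2 farthest tumors the signal of the pool channel had r of -0.77 with ADM, against -0.04 over all 16. No endothelial and no macrophage or leukocyte marker of the lists had a named probe, so vessel and immune cell content was not measured here. The part of these measures in the variation of the 3 genes was not tested.

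The probes of the 3 genes were bright enough to be measured. Their lowest signal over local background in any channel was 5.13 for ADM, 3.71 for NDRG1 and 20.8 for GPI, none of their spots was marked 0, and the brightest spot reached 40645, below the scanner's maximum. Over whole arrays the median signal over background was between 2.29 and 9.61. The 7 named probes of luminal epithelial markers, which the cell line is known to express, had median signals of 5.52 (ERBB3) to 64.6 (MUC1) times the local background. At day 1, when GPI was called higher, 4 of these 7 were called higher (the 3 CLDN4 probes and SPINT1) and 1 lower (MUC1). Over all probes, 3% were called higher and 3.59% lower on that day. The median log2 ratio of the 7 was 0.58, against -0.01 over all probes. At day 14, 4 were called higher and none lower, against 3.33% and 2.96% of all probes, with a median of 0.69 against 0.00. These 7 probes were named because they changed on these arrays, so their share of calls is a description. Within days their mean had r of 0.41 with GPI (exact permutation p = 0.324, adjusted p = 0.680 over the 21 relations, n = 16), 0.23 with NDRG1 and 0.15 with ADM. For GPI, Spearman's rho was 0.29 (exact permutation p = 0.424), and r was 0.27 without the 2 tumors farthest from the median of the luminal mean. Their part in the values of the 3 genes was not tested.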

How the data were processed

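RNA of 16 tamoxifen-treated ZR-75-1 xenografts and of a control pool was compared on 32 cDNA arrays. The deposited intensity values give the brightness of a spot and of its surroundings in each channel, not corrected or normalized by the authors. The authors' table holds normalized log2 ratios per array, made with limma (version not given in the sources used here) by background correction, loess and quantile normalization. These log2 ratios are already turned by orientation and served as an alternative.

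The software was limma 3.58.1, statmod 1.5.0 and R 4.3.3. Spots marked 0 (1 to 393 per array) were left out, followed by normexp (offset 50), loess and quantile normalization. Dye-swap ratios had their sign changed before both arrays of a tumor were averaged. The fit held 1 mean per day, the mouse as a random block (correlation 0.0206) and eBayes, with Benjamini-Hochberg adjustment over 9912 probes. All adjusted p of probes are from limma. Fitted means of days 4 and 7 differ slightly from the plain means printed. Within-day correlations were tested by exact two-sided permutation within days (55296 orders).

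The files do not name the dye of a channel. The sign used is channel 2 over channel 1 on forward arrays, which correlated positively with the authors' table on 31 of 31 arrays used (median r 0.866, lowest 0.217) and runs with the protein stains of the study, so the direction is likely. The lowest r between 2 arrays of the same orientation was 0.0226. Precision is limited by the number of arrays. Replicates are separate tumors, but all descend from 1 cell line and 4 mice gave 2 tumors each. Scripts were tested on simulated data.

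The members, the gene lists and the tests were chosen with earlier results of these data known. Named genes are the 3 members, the listed hypoxia, glycolysis and HIF regulator genes with a named probe, and the 8 named probes with the highest and the 4 with the lowest mean within-day r. Names come from the study's list, and the other 9579 probes are unnamed here. The values of 1 listed gene are not reported here. Alternatives covered background, normalization, spot and probe filters, the authors' table, the mouse, dye orientation, replicate number, the left-out array, weights and single tumors.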

Additional observations from a re-analysis of the deposited data

Results flagged for a closer look

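PLOD2, the collagen lysyl hydroxylase gene, had its lowest day 7 value far from the others: probe 310449_A was at -0.36 in day 7 replicate 2, and the gap to the next tumor was 0.927 of the range of the day. The other PLOD2 probe, 139570_A, did not show it: day 7 replicate 2 was at -0.20 there, within a range of -0.25 to -0.03. The value of 310449_A was the 1 such value among 75 groups of 4 tumors examined (25 probes), and chance gives about 1 in 20 groups.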

How the results depend on the processing

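GPI, NDRG1 and ADM kept the sign of their within-day correlations under every alternative, and the one relation that lost an exact permutation p under 0.05 was that of ADM and GPI, with r = 0.759 (exact permutation p = 0.0542) when the left-out array was used with its labelled tumor. Leaving out each tumor in turn gave r of 0.912 to 0.963 for ADM and NDRG1, 0.781 to 0.974 for ADM and GPI and 0.868 to 0.939 for NDRG1 and GPI. With the replicate number as a block r was 0.961, 0.897 and 0.897, and the block changed no call of the 3 genes, though the numbers only name the tumors. Of the 3 genes, 1 was called at day 1, which became 2 with median centring, forward arrays only or array weights and 0 with 1 mean per mouse or dye-swap arrays only. It ran from 0 (without day 1 replicate 1, 2 or 3) to 2 (without replicate 4). At day 14, 0 were called, against 3 with only the tumors of that day, and against earlier days 0 were called lower, against 1 with 1 mean per mouse, array weights or without day 1 replicate 4 (range 0 to 1). Signs turned for ADM at day 7 (0.024 with median centring, 0.056 on dye-swap arrays, and -0.058 to 0.029 with each tumor left out in turn), NDRG1 at day 2 (0.0056 in the authors' table, 0.23 on forward arrays, and -0.30 to 0.23 with each tumor left out), NDRG1 at day 4 (-0.14 on dye-swap arrays) and ADM at day 1 (-0.32 without replicate 1, -0.047 without replicate 2, and up to 0.77 without replicate 4). The cause was not tested. Taking the mean dye offset from day 4 replicate 3, chosen after seeing the data, changed no call. Counts over all probes moved more: 653 at day 1 became 26 to 1872 under other alternatives and 125 to 993 without single tumors, 77 at day 2 became 1 to 250 and 6 to 324, 106 at day 4 became 0 to 929 and 15 to 136, 73 at day 7 became 0 to 1044 and 14 to 116, 623 at day 14 became 434 to 1440 and 30 to 730, and 34 against earlier days became 14 to 272 and 1 to 61. Probe filters, weights and the mouse block enter no correlation.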
